A study of Danio rerio with 9 samples.

Results

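Transcripts of 8 zebrafish genes of glucose uptake and glycolysis were followed in whole embryos exposed to a coal dust extract. The genes are the glucose transporter gene slc2a1a, the hexokinase genes hk1 and hk2, the phosphofructokinase gene pfkma, and gapdh, pgk1, eno1a and ldha, which encode enzymes of the lower pathway and of lactate formation. They were chosen with earlier results of these data known, so shares of all tested genes given below are a background and not a test of the set. They were found by gene symbol in the deposited gene tables, and each matched 1 of 32312 gene rows. All 8 passed the filter on low counts that left 19835 genes for testing, so the counts below cover every member. Wild-type TU embryos were given a methanolic coal dust extract, dissolved in dimethyl sulfoxide, at 100 mg/L from 4 h post fertilisation, and were collected whole at 24 h. The exposed embryos were sorted by malformation into 3 groups. P1 had deformed tails (n = 3 libraries), P2 had deformed yolks (n = 2), and P3 were small with their yolks extruded (n = 3), and the control was 1 pooled library of phenotypically normal embryos (n = 1). RNA came from 50 embryos per phenotype group, and the labels do not say if the control embryos were given solvent. Since no exposed embryos of normal appearance were analysed here, exposure and malformation cannot be told apart.

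Glycolysis turns glucose into pyruvate in the cytosol and yields ATP, and lactate dehydrogenase lets it run without oxygen by returning NADH to NAD+. Glucose enters cells through SLC2 (GLUT) carriers, hexokinases trap it as glucose 6-phosphate, and phosphofructokinase commits it to the pathway. Most steps have several genes in zebrafish, with forms typical of muscle, nerve, liver or most cells, so a level in whole-embryo RNA adds up tissues. In such RNA, fewer cells of a type and less RNA per cell cannot be told apart.

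Library totals were 14719252 to 17198110 gene counts in P1, 16267045 to 18358853 in P2, 15520740 to 20810487 in P3 and 12008832 in the control. Levels are CPM (counts scaled to a common library total) scaled by TMM normalisation factors, which corrected library sizes by 0.978 to 1.014. Summed levels of marker lists are CPM without these factors. A change is a log2 fold change ± standard error from edgeR's quasi-likelihood test, and "rose" or "fell" means an adjusted p below 0.05 over all tested genes. The control had 1 library, so its spread was taken to equal that of the phenotype groups. Replicates were not stated to come from separate spawnings, and p-values then measure the spread between these libraries, which may be technical. Replicate 0 of P3 stood apart from its group: its counts differed from those of the other P3 libraries by a chi-square of 7.12 and 7.48 per gene, against 3.57 between those libraries, so values without it are given where they matter. Markers of muscle, neurons, red blood cells, yolk syncytial layer, lens and epidermis were detected in every group. Of 16 yolk syncytial markers, 1 was at 0 in every library of P2 and 1 at 0 in the control. The closest copies of pfkma, hk1, eno1a and gapdh may share reads with them, and the strand setting of the counting is not stated in the labels.

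Against the control, the glycolytic enzymes were mostly lower and the transporter slc2a1a was higher in every phenotype. Of the 8 genes, 1 rose and 6 fell in P1, where 16.3% of all tested genes passed (7.08% higher, 9.19% lower). In P2, 1 rose and 5 fell, against 29.8% of all tested genes passing (14.2% higher, 15.6% lower). In P3, 1 rose and 6 fell, against 22.6% passing (10.4% higher, 12.2% lower). The 3 comparisons share the control library, so they are not separate tests of it. The median log2 fold change of the 8 genes was -0.32 in P1, -0.45 in P2 and -0.49 in P3, while that of all tested genes lay between -0.001 and 0.014. The levels did not overlap with the control's for 7 of the 8 genes in P1 (73.8% of all tested genes), 8 in P2 (87.7%) and 8 in P3 (73.1%), a comparison with 1 library. The 5 members pfkma, hk1, gapdh, eno1a and ldha fell in all 3 phenotypes, pgk1 fell in P1 and P3, and hk2 passed in none.

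**Figure D1:**
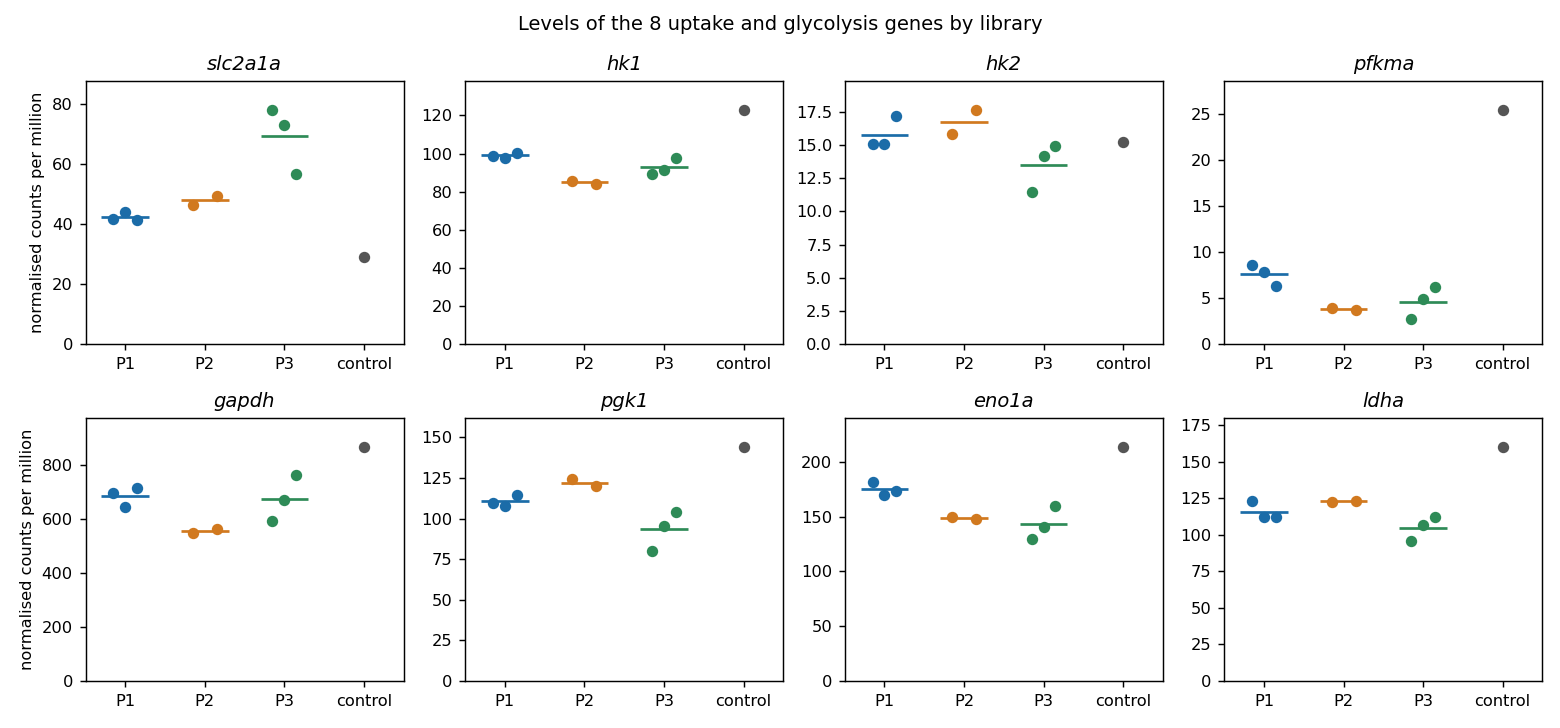
Normalised CPM (vertical axes, linear, from 0) of the 8 genes in every library of P1, P2, P3 and the control. Points are libraries and bars the group means. The slc2a1a points of all 8 phenotype libraries lie above the control's 29.1 CPM, and the pfkma points, at 8.54 CPM or less, lie below its 25.4 CPM.

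The transporter gene slc2a1a (ENSDARG00000001437, Zv9 chromosome 23, 22494609 to 22506777, plus strand) encodes a zebrafish GLUT1, the carrier for basal glucose uptake. It was at 41.8, 44.2 and 41.3 CPM in P1, 46.4 and 49.4 CPM in P2, 77.9, 73.0 and 56.6 CPM in P3, and 29.1 CPM in the control. Every phenotype library was above the control, and the P3 libraries were all above those of P1 and P2. The rise was 0.54 ± 0.15 in P1, or 1.46-fold (edgeR adjusted p = 0.0175). It was 0.72 ± 0.15 in P2, or 1.65-fold (edgeR adjusted p = 0.00181), and 1.25 ± 0.15 in P3, or 2.37-fold (edgeR adjusted p = 7.61e-06). P3 was also above P1 by 0.70 ± 0.09 (edgeR adjusted p = 5.79e-05) and above P2 by 0.52 ± 0.10 (edgeR adjusted p = 0.00114), and both differences passed in all 15 alternative analyses. Without P3 replicate 0 the change in P3 was 1.15. The P1 call was lost without P1 replicate 1, where the change was 0.50, and its adjusted p ranged from 0.000104 to 0.0501 over the 15 alternatives.

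Among the other tested SLC2 carriers the phenotypes differed. Of 13 tested carrier genes, slc2a1a included, 2 rose and 3 fell in P1, 1 rose and 5 fell in P2, and 2 rose and 3 fell in P3. For all tested genes the share that passed was 16.3%, 29.8% and 22.6% in P1, P2 and P3. The second riser was slc2a3, a GLUT3 gene, at 43.3 ± 1.76 CPM in P1 and 70.7 ± 2.85 CPM in P3 (SD, n = 3 each), against 32.3 CPM in the control. It changed by 0.42 ± 0.10 in P1 (edgeR adjusted p = 0.00556) and 1.13 ± 0.09 in P3 (edgeR adjusted p = 1.56e-07), but in P2 it averaged 31.7 ± 1.22 CPM (SD, n = 2) and did not pass (-0.03 ± 0.10, edgeR adjusted p = 0.854). The second GLUT1 gene, slc2a1b, passed in none of the 3 (-0.17, -0.23 and -0.44 in P1, P2 and P3). The fallers in all 3 phenotypes were slc2a11b and the pair slc2a15a and slc2a15b. The carrier slc2a15b averaged 24.1 ± 1.34 CPM in P1 (n = 3), 14.6 ± 0.86 CPM in P2 (n = 2) and 18.7 ± 1.49 CPM in P3 (n = 3; all SD), against 43.3 CPM in the control. The GLUT2 gene slc2a2, a liver and gut carrier in mammals, fell in P2 by 0.74 ± 0.13 and was 1.02 ± 0.10 higher in P3 than in P2.

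Per length, slc2a1a took 24.6 ± 1.05% of the summed FPKM of 17 SLC2 genes in P1 (n = 3), 32.2 ± 1.16% in P2 (n = 2) and 32.9 ± 3.08% in P3 (n = 3; all SD), against 14.7% in the control. The summed level of the family did not move in 1 direction. It was 94.2 to 98.3 FPKM in P1, 83.4 to 83.9 FPKM in P2 and 105 to 122 FPKM in P3, against 110 FPKM in the control.

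Of the hexokinase genes, hk1 (ENSDARG00000039452, chromosome 13, 23113100 to 23148025, minus strand) encodes the form found in most tissues. It was at 98.9, 97.8 and 100.4 CPM in P1, 85.8 and 84.0 CPM in P2, 89.0, 91.5 and 97.6 CPM in P3, and 122.7 CPM in the control. No phenotype library reached the control. Its change was -0.31 ± 0.07 in P1, -0.53 ± 0.08 in P2 and -0.40 ± 0.07 in P3, with edgeR adjusted p of 0.00882, 7.85e-05 and 0.000752 for P1, P2 and P3, and all 3 calls held in all 15 alternatives.

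The gene hk2 (ENSDARG00000026964, chromosome 5, 15078490 to 15394070, plus strand) encodes the hexokinase typical of muscle and fat in mammals. Its gene model spans 315581 bases and overlaps FIGLA (2 of 2) on the other strand, the only such overlap among the 8 genes. It was at 15.1, 15.04 and 17.2 CPM in P1, 15.8 and 17.6 CPM in P2, 11.5, 14.2 and 14.9 CPM in P3, and 15.2 CPM in the control. The libraries of P1 lay on both sides of the control, those of P2 above it and those of P3 below it. No comparison passed: the log2 fold change was 0.05 ± 0.15 in P1, 0.14 ± 0.16 in P2 and -0.16 ± 0.15 in P3, and the largest difference was P3 against P2 (-0.30 ± 0.11, edgeR adjusted p = 0.059). That last difference passed in 4 of 15 alternatives, among them the one without P3 replicate 2.

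The third tested hexokinase-type gene, hkdc1, rose in P3 by 0.65 ± 0.15 (edgeR adjusted p = 0.00389) and did not pass in P1 or P2 (-0.01 ± 0.16 and 0.09 ± 0.16). It averaged 16.5 ± 0.35 CPM in P3 (SD, n = 3) and 10.5 CPM in the control, and P3 was 0.66 ± 0.09 above P1 and 0.56 ± 0.10 above P2. Per length, hk1 held 75.6%, 71.4% and 71.3% of the hexokinase FPKM in P1, P2 and P3, against 79.4% in the control. The share of hkdc1 was 9.85%, 11.7% and 15.8% in P1, P2 and P3, against 8.43% in the control.

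The largest change among the 8 genes was in pfkma (ENSDARG00000014179, chromosome 23, 27794423 to 27812304, minus strand), a muscle-type phosphofructokinase gene. Its raw counts were 147, 116 and 95 in P1, 65 and 68 in P2, 44, 77 and 126 in P3, and 304 in the control. In normalised terms it was at 8.54, 7.86 and 6.29 CPM in P1, 3.96 and 3.69 CPM in P2, 2.74, 4.90 and 6.20 CPM in P3, and 25.4 CPM in the control. No phenotype library came near the control, and the widest spread within a group was in P3. It fell by 1.74 ± 0.22 on the log2 scale in P1, where it was 3.34-fold lower (edgeR adjusted p = 2.95e-05). In P2 it fell by 2.73 ± 0.25 and was 6.63-fold lower (edgeR adjusted p = 3.67e-07), and in P3 by 2.43 ± 0.22, or 5.39-fold (edgeR adjusted p = 4.44e-07). Without P3 replicate 0, the library with 44 counts, the change in P3 was -2.18.

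Between the phenotypes, pfkma was 0.99 ± 0.23 higher in P1 than in P2 (edgeR adjusted p = 0.00526), a call that was lost without either P2 replicate (1.03 without replicate 0 and 0.94 without replicate 1, adjusted p from 4.53e-07 to 0.0747 over the 15 alternatives). It was lower in P3 than in P1 by 0.69 ± 0.20 (edgeR adjusted p = 0.0304), which passed in 7 of 15 alternatives and was -0.44 without P3 replicate 0. P3 and P2 differed by 0.30 ± 0.24 and did not pass (edgeR adjusted p = 0.415). That difference was 0.55 and passed without P3 replicate 0, and was -0.003 without P3 replicate 2, with adjusted p from 0.0243 to 0.996 over the alternatives.

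Of 6 tested phosphofructokinase genes, pfkma included, 3 fell in P1, 5 in P2 and 3 in P3, and 0 rose. Of all tested genes, 9.19%, 15.6% and 12.2% fell in P1, P2 and P3. Among the 5 genes other than pfkma, 2 fell in every phenotype. The second muscle-type gene, pfkmb, fell in all 3 phenotypes by 1.06 ± 0.17, 1.52 ± 0.18 and 1.42 ± 0.17 in P1, P2 and P3, and averaged 24.9 ± 3.34, 18.1 ± 0.24 and 19.4 ± 4.80 CPM there, against 52.1 CPM in the control. A platelet-type gene, PFKP (1 of 2), fell by 0.61 ± 0.12, 1.09 ± 0.13 and 0.77 ± 0.12 in P1, P2 and P3. The liver-type gene PFKL (2 of 2) fell in P2 (-0.46 ± 0.13, edgeR adjusted p = 0.0123) and did not pass in P1 or P3 (-0.28 ± 0.12 and -0.18 ± 0.12). No test of the difference between these genes was made. Summed over 6 phosphofructokinase genes, the level was 31.2 to 36.9 FPKM in P1, 25.7 to 27.9 FPKM in P2 and 28.8 to 33.0 FPKM in P3, against 56.2 FPKM in the control. The share of pfkma was 6.81%, 4.44% and 4.45% in P1, P2 and P3, against 13.9% in the control, while that of PFKL (2 of 2) was 40.6%, 45.3% and 47.2%, against 29.8%.

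**Figure D2:**
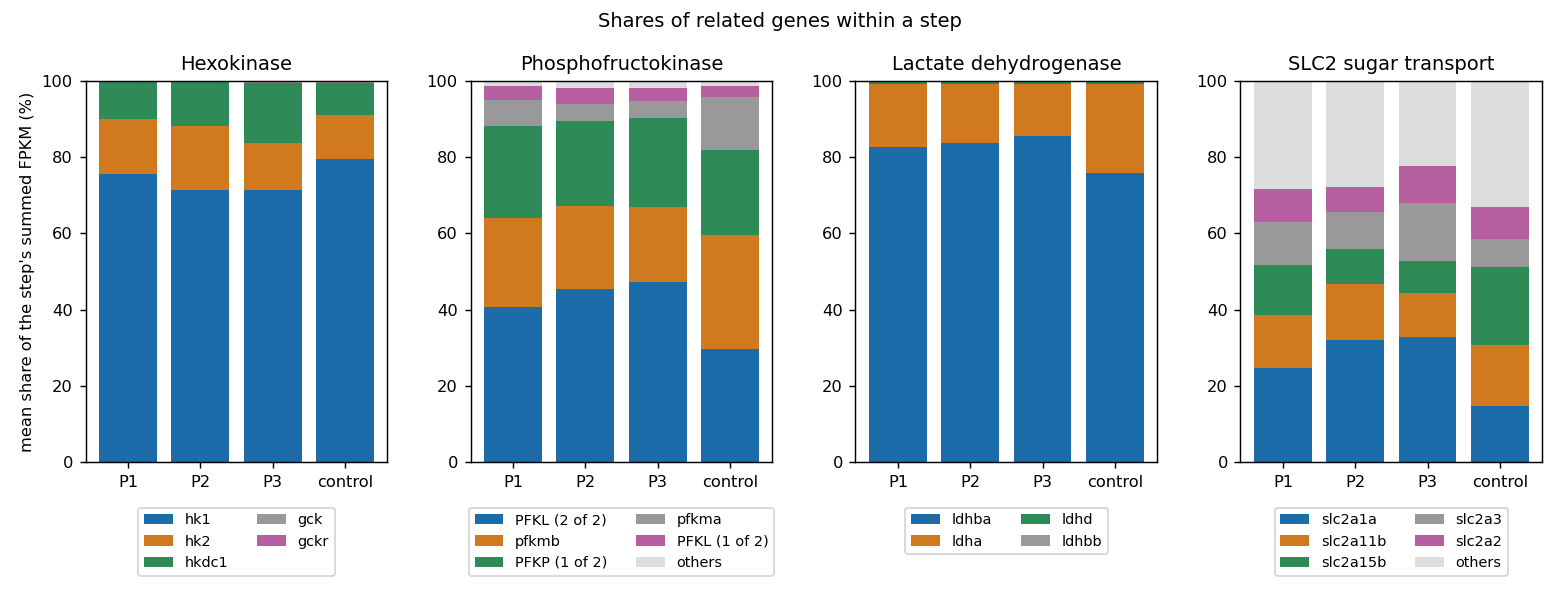
Shares of genes in the summed FPKM of their step (vertical axes, percent, group means) in P1, P2, P3 and the control. The steps are SLC2 carriers, hexokinases, phosphofructokinases and lactate dehydrogenases. For SLC2 carriers and phosphofructokinases, only the genes with the highest mean shares are drawn singly, and the rest are pooled. The slc2a1a share is 24.6% to 32.9% in the phenotypes and 14.7% in the control, and the ldha share is 13.5% to 16.4% in the phenotypes and 23.4% in the control.

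Skeletal muscle markers moved in the same direction as pfkma, while 9.19%, 15.6% and 12.2% of all tested genes fell in P1, P2 and P3 against the control. Of 32 muscle markers, 26 fell and 0 rose in P1, 27 fell and 1 rose in P2, and 28 fell and 1 rose in P3, with median log2 fold changes of -0.56, -0.93 and -0.90 in P1, P2 and P3. Their summed level was 29020 to 32280 CPM in P1, 22900 to 22920 CPM in P2 and 20700 to 27370 CPM in P3, against 42920 CPM in the control, led by atp2a1, mylpfa and tpma, and no marker was at 0 in every library of a group. The log2 fold change of pfkma lay below that of all 32 markers in each comparison with the control. The lowest marker values there were -1.48, -2.51 and -2.00 in P1, P2 and P3. Between the phenotypes 22 markers rose and 2 fell in P1 against P2, and 1 rose and 16 fell in P3 against P1. In P3 against P2, 9 rose and 2 fell. Of all tested genes, 10.6% rose and 9.91% fell in P1 against P2. The shares were 6.01% and 4.42% in P3 against P1, and 11.0% and 10.5% in P3 against P2. The part of the muscle markers in the pfkma result was not tested.

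The gene gapdh (ENSDARG00000043457, chromosome 16, 19254364 to 19261820, minus strand) encodes the enzyme that oxidises glyceraldehyde 3-phosphate and is often used as a loading reference. It was at 697, 646 and 714 CPM in P1, 548 and 563 CPM in P2, 594, 670 and 762 CPM in P3, and 867 CPM in the control. All phenotype libraries were below the control and those of P2 were the lowest. It fell by 0.34 ± 0.10 in P1, 0.64 ± 0.10 in P2 and 0.36 ± 0.10 in P3, with edgeR adjusted p of 0.0259, 0.000179 and 0.0138 for P1, P2 and P3. The P1 call was lost without P1 replicate 1 (-0.31, adjusted p from 0.00047 to 0.0626 over the 15 alternatives). P1 was above P2 by 0.30 ± 0.08 (edgeR adjusted p = 0.0119) and P3 was above P2 by 0.28 ± 0.08 (edgeR adjusted p = 0.0173). Among the fits with 1 library left out, the first of these was lost without P1 replicate 2 (0.27) or either P2 replicate (0.28 and 0.32), and the second without P3 replicate 2 (0.19) or either P2 replicate. They passed in 12 and 11 of the 15 alternatives. Its relative gapdhs passed in none of the 3 comparisons with the control (0.18, 0.09 and 0.01), and the share of gapdh in their summed FPKM was 77.8%, 75.1% and 79.6% in P1, P2 and P3, against 83.4% in the control.

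The next enzyme, phosphoglycerate kinase, which makes the first ATP of the lower pathway, is encoded by pgk1 (ENSDARG00000054191, chromosome 21, 36771669 to 36787616, plus strand). It was at 109.3, 107.7 and 114.7 CPM in P1, 124.6 and 119.8 CPM in P2, 80.2, 95.5 and 104.2 CPM in P3, and 144.1 CPM in the control. The order of the phenotypes differed from that of pfkma, hk1 and gapdh: the P2 libraries were the highest of the exposed embryos and the P3 libraries the lowest. The change was -0.38 ± 0.10 in P1 (edgeR adjusted p = 0.0162) and -0.62 ± 0.10 in P3 (edgeR adjusted p = 0.000234). In P2 it was -0.24 ± 0.11 and did not pass (edgeR adjusted p = 0.108), but it passed without P3 replicate 0 and when P2 and the control were fitted alone, with adjusted p from 0.000211 to 0.264 over the 15 alternatives. In the authors' deposited table for P2 the adjusted p of pgk1 was 0.00593. P3 was below P2 by 0.39 ± 0.08 (edgeR adjusted p = 0.00243), a call that held in all 15 alternatives, with -0.29 without P3 replicate 0. P3 was below P1 by 0.24 ± 0.07 (edgeR adjusted p = 0.0424), which passed in 7 of 15 alternatives and was -0.15 without P3 replicate 0.

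Enolase, which forms phosphoenolpyruvate, has its widely expressed form in eno1a (ENSDARG00000022456, chromosome 23, 22950619 to 22972140, plus strand). It was at 181.5, 170 and 173.9 CPM in P1, 150 and 147.9 CPM in P2, 129.4, 140.2 and 160 CPM in P3, and 213.7 CPM in the control. The control was above all exposed libraries and P1 above the other phenotypes. It fell by 0.29 ± 0.09 in P1, 0.52 ± 0.10 in P2 and 0.58 ± 0.09 in P3, with edgeR adjusted p of 0.0407, 0.000633 and 0.000173 for P1, P2 and P3. The P1 call passed in 10 of the 15 alternatives, with adjusted p from 0.00601 to 0.088. It was lost without P1 replicate 1 (-0.28), P1 replicate 2 or either P2 replicate, and in 1 alternative fit of all libraries. P3 was below P1 by 0.29 ± 0.07 (edgeR adjusted p = 0.00791), which held in all 15 alternatives. P1 was above P2 by 0.23 ± 0.07 (edgeR adjusted p = 0.0317). That call passed in 10 of the 15 alternatives, with adjusted p from 0.00171 to 0.183. It was lost without P1 replicate 0 or 2, without either P2 replicate (0.24 and 0.22), and in 1 alternative fit of all libraries. Of its relatives, the neuronal-type eno2 fell in all 3 phenotypes by 0.48 ± 0.13, 0.75 ± 0.14 and 0.48 ± 0.13 in P1, P2 and P3, and the muscle-type eno3 fell in P2 (-0.48 ± 0.12, edgeR adjusted p = 0.00782) and did not pass in P1 or P3. The near copy eno1b was at 2.13 to 4.52 CPM in every library and passed in no comparison. The share of eno1a in enolase FPKM was 28.8%, 29.8% and 26.1% in P1, P2 and P3, against 30.3% in the control.

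Lactate dehydrogenase A, which reduces pyruvate to lactate, is encoded by ldha (ENSDARG00000040856, chromosome 25, 25749747 to 25758098, minus strand). It was at 123.3, 111.9 and 112.1 CPM in P1, 122.6 and 123 CPM in P2, 95.7, 106.4 and 111.9 CPM in P3, and 160 CPM in the control. All exposed libraries were well below the control, and the phenotypes lay close together. The fall was 0.47 ± 0.09 in P1, 0.38 ± 0.09 in P2 and 0.61 ± 0.09 in P3, with edgeR adjusted p of 0.00133, 0.00467 and 5.47e-05 for P1, P2 and P3, and each held in all 15 alternatives. P3 was below P2 by 0.23 ± 0.07 (edgeR adjusted p = 0.0242), a call that passed in 11 of the 15 alternatives, with adjusted p from 0.00722 to 0.144. It was lost without P3 replicate 0 (-0.17) or either P2 replicate, and in 1 alternative fit of all libraries.

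The second lactate dehydrogenase gene went the other way. The gene ldhba, whose product favours lactate oxidation in mammals, averaged 441 ± 20.4 CPM in P1, 497 ± 8.65 CPM in P2 and 500 ± 26.4 CPM in P3 (SD, n = 3, 2 and 3), against 392 CPM in the control. It rose by 0.34 ± 0.08 in P2 (edgeR adjusted p = 0.00462) and by 0.35 ± 0.08 in P3 (edgeR adjusted p = 0.00354), and was 0.17 ± 0.08 in P1 (edgeR adjusted p = 0.155). The share of ldha in lactate dehydrogenase FPKM was 16.4 ± 1.18% in P1, 15.6 ± 0.21% in P2 and 13.5 ± 0.69% in P3 (SD), against 23.4% in the control. The summed level was 318 to 336 FPKM in P1, 363 to 369 FPKM in P2 and 346 to 371 FPKM in P3, against 315 FPKM in the control.

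**Figure D3:**
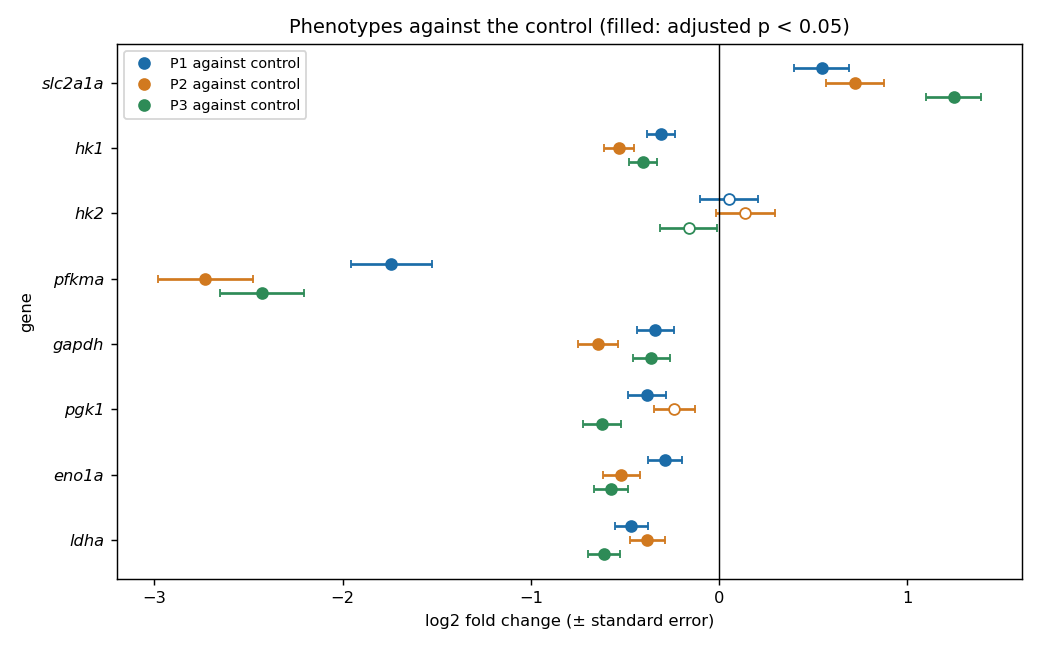
Log2 fold changes of the 8 genes in P1, P2 and P3 against the control (horizontal axis), with standard errors from edgeR as bars, and filled points where the adjusted p was below 0.05. The slc2a1a points lie right of 0 (0.54 to 1.25), the pfkma points farthest left (-1.74 to -2.73), and the hk2 points around 0.

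The comparisons between phenotypes do not involve the control directly. Of the 8 genes, 4 rose and 0 fell in P1 against P2, where 20.5% of all tested genes passed (10.6% higher, 9.91% lower). In P3 against P1, 1 rose and 3 fell (10.4% of all genes passed, 6.01% higher and 4.42% lower), and in P3 against P2, 2 rose and 2 fell (21.5% passed, 11.0% higher and 10.5% lower). A joint test for any difference among P1, P2 and P3 passed for 7 of the 8 genes, against 28.8% of all genes, and hk2 was the exception (edgeR adjusted p = 0.0887). The genes higher in P1 than in P2 were pfkma, gapdh, eno1a and hk1, the last by 0.22 ± 0.06 (edgeR adjusted p = 0.0137). These 4 calls were lost when either P2 replicate was left out, which leaves P2 with 1 library. With single libraries left out, the differences kept their direction. They were 0.884 to 1.1 for pfkma, 0.274 to 0.344 for gapdh, 0.205 to 0.253 for eno1a and 0.207 to 0.234 for hk1. The normalised levels of P1 and P2 did not overlap for 6 of the 8 genes (52.0% of all tested genes), nor did those of P3 and P1 for 6 (27.6%) or those of P3 and P2 for 6 (48.9%).

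**Figure D4:**
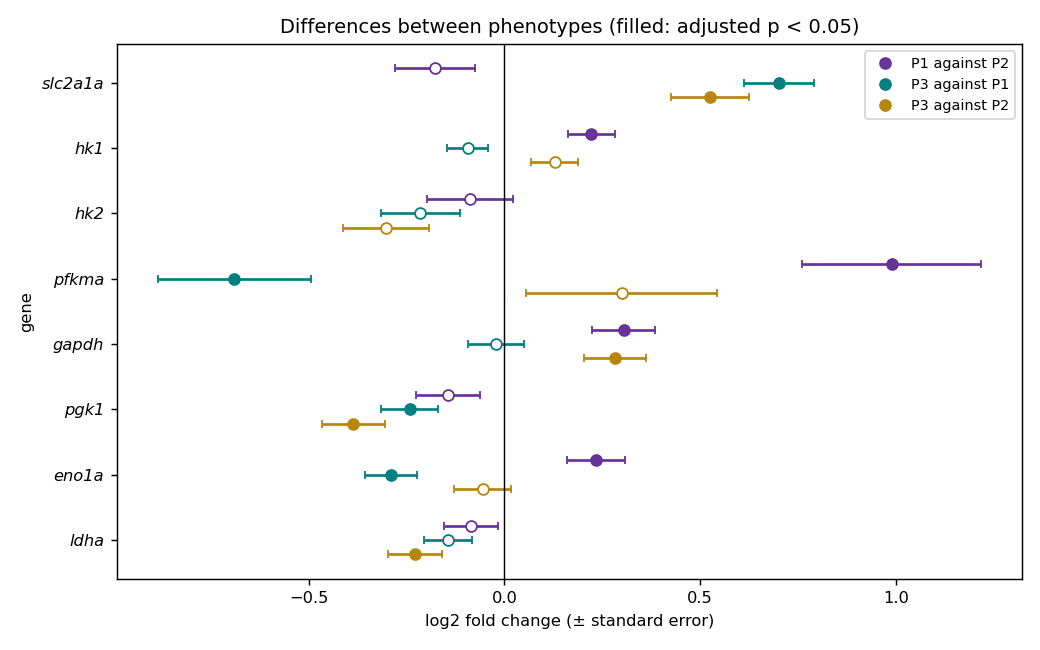
Log2 fold changes of the 8 genes for P1 against P2, P3 against P1 and P3 against P2 (horizontal axis), with edgeR standard errors as bars and filled points at an adjusted p below 0.05. The slc2a1a points lie right of 0 in both comparisons of P3 (0.70 and 0.52), and the pgk1 points left of 0 in both (-0.24 and -0.39).

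On a per-length scale gapdh was the highest of the 8 genes in all groups, and the order below it differed between groups. In the control gapdh was at 482 FPKM, eno1a at 74.3, ldha at 73.8, pgk1 at 62.1, hk1 at 30.1, slc2a1a at 16.2, pfkma at 7.81 and hk2 at 4.44 FPKM. In the phenotypes pfkma was the lowest of the 8, at 2.33 ± 0.37 FPKM in P1, 1.19 ± 0.06 FPKM in P2 and 1.42 ± 0.52 FPKM in P3 (SD), below hk2 at 4.61 ± 0.32, 4.93 ± 0.35 and 3.95 ± 0.51 FPKM. The transporter moved the other way: slc2a1a was at 23.6 ± 0.98 FPKM in P1, 26.9 ± 1.08 FPKM in P2 and 38.5 ± 6.71 FPKM in P3, and its range was above that of hk1 in P2 (26.1 to 27.7 against 20.7 to 21.3 FPKM) and P3 (30.9 to 43.4 against 21.9 to 23.5 FPKM). In P1 slc2a1a and hk1 overlapped in range (22.8 to 24.7 and 24.1 to 24.5 FPKM). In P2 the range of eno1a (51.8 to 52.8 FPKM) lay below that of ldha (57.1 to 57.3 FPKM) and overlapped that of pgk1 (51.9 to 54.3 FPKM), while in P1, P3 and the control its mean was above that of both. The levels of eno1a, ldha and pgk1 in P3 also overlapped or were adjacent (45.1 to 54.6, 44.3 to 50.6 and 34.6 to 44.0 FPKM).

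Other genes listed by family for every step from uptake to lactate gave the background to the 8. Not all of them are enzymes of glycolysis. Among them pgam5, listed with the mutases by its name, rose in P1 and P2 (0.35 ± 0.09 and 0.31 ± 0.09). Leaving the 8 out, 41 genes were tested, of which 2 rose and 11 fell in P1, 3 rose and 18 fell in P2, and 5 rose and 14 fell in P3. Their median log2 fold changes were -0.23, -0.44 and -0.21 in P1, P2 and P3. Against the control 16.3%, 29.8% and 22.6% of all tested genes passed in P1, P2 and P3. In P1 against P2, 12 of the 41 rose and 2 fell. In P3 against P2, 13 rose and 2 fell, and in P3 against P1, 6 rose and 6 fell. Of all tested genes, 20.5% passed in P1 against P2, 21.5% in P3 against P2 and 10.4% in P3 against P1. Falls in all 3 phenotypes were seen for gpib, a phosphoglucose isomerase (-0.53 ± 0.17, -0.86 ± 0.18 and -0.90 ± 0.17), for the aldolase aldoab (-0.26 ± 0.08, -0.53 ± 0.08 and -0.38 ± 0.08), and for the triose phosphate isomerase tpi1b (-0.31 ± 0.10, -0.59 ± 0.10 and -0.63 ± 0.10). The muscle-type mutase pgam2 fell in P2 and P3, and the pyruvate kinase pkmb fell in P2 and P3 (-0.99 ± 0.16 and -0.49 ± 0.15). The liver-type pyruvate kinase PKLR rose in P3, by 0.73 ± 0.18 (edgeR adjusted p = 0.00575), and was also higher there than in P1 (0.83 ± 0.12) and P2 (0.88 ± 0.13).

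**Figure D5:**
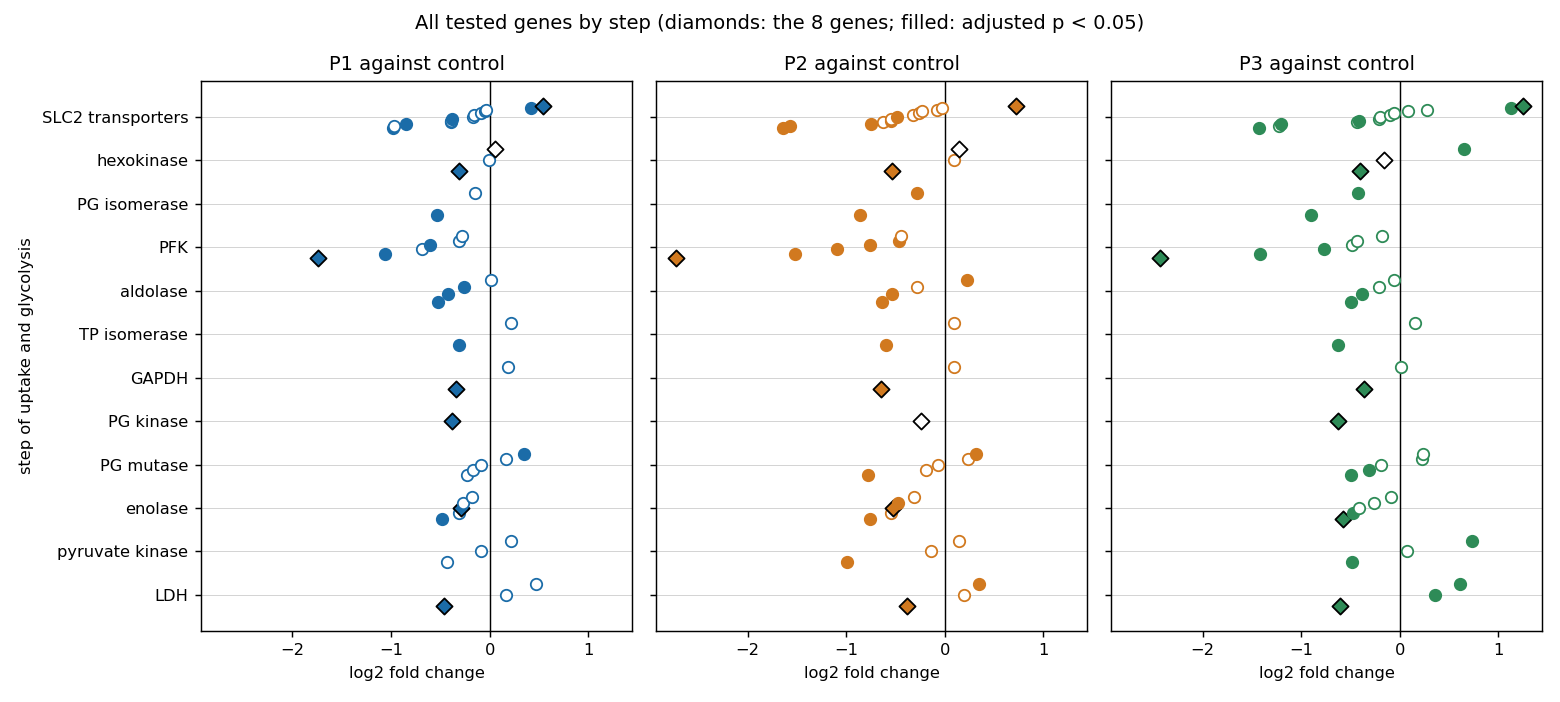
Log2 fold changes against the control (horizontal axis) of every tested gene on the uptake, glycolysis and lactate lists, by step (vertical axis), in panels for P1, P2 and P3. Diamonds are the 8 genes, circles the others, and filled points passed. Most points lie left of 0, with pfkma farthest left among the phosphofructokinases and slc2a1a right of 0 among the carriers.

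Genes that feed, regulate or branch from glycolysis moved both ways. Of 89 such genes tested, 9 rose and 16 fell in P1, 17 rose and 29 fell in P2, and 16 rose and 21 fell in P3. Over all tested genes, 7.08%, 14.2% and 10.4% rose and 9.19%, 15.6% and 12.2% fell in P1, P2 and P3. The pfkfb4l gene, for an enzyme that sets the level of the phosphofructokinase activator fructose 2,6-bisphosphate, averaged 67.4 ± 5.98 CPM in P1, 92.1 ± 1.35 CPM in P2 and 121 ± 7.29 CPM in P3 (SD), against 48.4 CPM in the control. It rose by 0.48 ± 0.10, 0.93 ± 0.11 and 1.32 ± 0.10 in P1, P2 and P3, and was higher in P3 than in P1 by 0.84 ± 0.07 and than in P2 by 0.39 ± 0.07. The gene txnipa, whose mammalian counterpart restrains glucose uptake, rose in P2 (0.72 ± 0.09) and P3 (0.82 ± 0.08) and was -0.02 ± 0.08 in P1. Its copy txnipb fell in P1 (-0.55 ± 0.14), did not pass in P2 and rose in P3 (0.41 ± 0.13). Of 10 tested genes on the list that holds pfkfb4l, txnipa and txnipb, 1 rose and 1 fell in P1. In P2 and in P3, 3 rose and 0 fell. The lactate exporter gene slc16a3 fell in all 3, by 0.61 ± 0.11, 0.76 ± 0.12 and 1.102 ± 0.12 in P1, P2 and P3. Of 9 tested genes of lactate and pyruvate transport, slc16a3 included, 2 rose and 1 fell in P1. In P2, 3 rose and 2 fell, and in P3, 1 rose and 2 fell. The gene slc16a8, at 251 CPM in the control against 28.05 CPM for slc16a3, rose in P1 (0.26 ± 0.08) and P2 (0.41 ± 0.08). The 10 listed transport genes summed to 523 FPKM in the control. They summed to 542 to 569 FPKM in P1, 584 to 607 FPKM in P2 and 551 to 565 FPKM in P3.

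The pentose phosphate pathway, which draws glucose 6-phosphate away from glycolysis and makes NADPH, had more genes higher than lower. Of 9 tested genes, 4 rose and 1 fell in P1, 4 rose and 2 fell in P2, and 5 rose and 1 fell in P3. Among all tested genes 16.3%, 29.8% and 22.6% passed in P1, P2 and P3. The transketolase gene tkt rose by 0.47 ± 0.07, 0.49 ± 0.07 and 0.75 ± 0.07 in P1, P2 and P3, and pgd and taldo1 also rose in each, while the separate gene model TKT fell (-0.82 ± 0.23, -0.89 ± 0.24 and -1.06 ± 0.23). The summed level of the pathway was 412 to 420 FPKM in P1, 412 to 414 FPKM in P2 and 465 to 474 FPKM in P3, against 334 FPKM in the control.

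More glycogen and gluconeogenesis genes fell than rose, while 9.19%, 15.6% and 12.2% of all tested genes fell in P1, P2 and P3. The share of all tested genes that rose was 7.08%, 14.2% and 10.4%. Of 22 tested glycogen genes, 5 fell in P1, 11 in P2 and 10 in P3, and 1 rose in each. The muscle-type synthase gys1 fell by 0.81 ± 0.13, 1.34 ± 0.14 and 1.06 ± 0.13 in P1, P2 and P3, and the riser was the liver-type synthase gys2 (0.79 ± 0.11, 0.53 ± 0.12 and 1.68 ± 0.11). Of 12 gluconeogenesis genes, 4 fell in P1, 8 in P2 and 4 in P3, with 0, 1 and 2 rising. The pyruvate carboxylase gene pc was at 113 ± 7.68, 56.99 ± 1.33 and 141 ± 7.79 CPM in P1, P2 and P3 (SD), against 283 CPM in the control. The rate-limiting gene pck1 rose in P2 (0.98 ± 0.15) and P3 (0.59 ± 0.15).

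Hypoxia inducible factor drives many glycolysis genes when oxygen is low. Of 15 tested genes of the factor and its regulators, 0 rose and 4 fell in P1, 4 rose and 4 fell in P2, and 1 rose and 4 fell in P3. Those comparisons passed for 16.3%, 29.8% and 22.6% of all tested genes. The joint test among P1, P2 and P3 passed for 3 of the 15, egln3, ankrd37 and vhl, against 28.8% of all tested genes. The vhl level was lower than in P2 by 0.77 ± 0.13 in P1 and by 0.71 ± 0.13 in P3. The prolyl hydroxylase gene model egln1 passed in no comparison, and a further model, EGLN1 (2 of 2), is not reported here. The gene hif1an, for the asparagine hydroxylase that inhibits the factor, fell in all 3 phenotypes (-0.57 ± 0.10, -0.57 ± 0.10 and -0.76 ± 0.10). It passed in no comparison between them. On the same list, hif1al2 also fell in all 3 phenotypes (-1.30 ± 0.22, -1.49 ± 0.24 and -1.50 ± 0.23 in P1, P2 and P3). The gene egln3, for a prolyl hydroxylase that is itself a target of the factor, was at 2.58 to 2.96 CPM in P1, 49.6 to 50.7 CPM in P2 and 2.25 to 4.42 CPM in P3, against 13.2 CPM in the control. It fell in P1 (-2.28 ± 0.22) and P3 (-1.85 ± 0.21) and rose in P2 (1.93 ± 0.17), with P1 lower than P2 by 4.20 ± 0.14. The gene ankrd37, a target of the factor in mammals, rose in P2 by 2.32 ± 0.15 and passed against the control in neither P1 nor P3 (-0.43 ± 0.17 and -0.26 ± 0.17). Of the 8 glycolysis genes, pgk1, ldha and hk2 had their highest phenotype means in P2, at 53.1 ± 1.73, 57.2 ± 0.13 and 4.93 ± 0.35 FPKM (SD, n = 2). The control was at 62.1, 73.8 and 4.44 FPKM. The highest phenotype means of pfkma, hk1, gapdh and eno1a were in P1, and that of slc2a1a was in P3. For pgk1, ldha and hk2 the difference of P1 against P2 did not pass (-0.14 ± 0.08, -0.08 ± 0.07 and -0.09 ± 0.11, edgeR adjusted p of 0.224, 0.425 and 0.623). The part of the factor in the levels of the 8 genes was not tested.

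The genes whose log2 CPM followed each member most closely over the 9 libraries, among 12401 genes, are given as a description, since the libraries share the same groups. Those nearest pfkma were casq1b (Pearson r = 0.994), a calsequestrin gene of muscle calcium stores, calm1b (0.993) and CR392006.1 (0.989). For slc2a1a they were igfbp7 (0.981), PGBD4 (4 of 7) (0.973) and isca1 (0.971). The gene hk1 was closest to tmod4 (0.991) and mylpfb (0.984), both of muscle sarcomeres, and to fez1 (0.984). The nearest to gapdh were nupr1 (0.986), pkmb (0.973) and calb2b (0.972). For eno1a they were tpi1b (0.994), the enzyme upstream in the pathway, the embryonic haemoglobin gene hbbe1.1 (0.984) and usp2a (0.982). The gene ldha was nearest to the collagen genes col6a2 (0.992), col6a1 (0.990) and col11a1b (0.981). The closest to pgk1 were znf668 (0.971), s100v1 (0.963) and st5 (0.959), and to hk2 hbbe2 (0.960), nt5dc1 (0.950) and DENND4B (0.939). Among the members, slc2a1a ran opposite to the other 7 (r from -0.93 to -0.49).

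Other tissues' markers moved beside these results too, while 9.19%, 15.6% and 12.2% of all tested genes fell in P1, P2 and P3. The summed neuron markers (16 genes, led by elavl3) were 669 to 691 CPM in P1, 566 to 578 CPM in P2 and 604 to 674 CPM in P3, against 812 CPM in the control, and 7, 14 and 10 of the 16 fell in P1, P2 and P3. The red blood cell markers (15 genes, led by hbae3) summed to 3131 to 3478 CPM in P1, 2958 to 3003 CPM in P2 and 2378 to 3069 CPM in P3, against 4157 CPM in the control, with 5, 8 and 10 of the 15 falling. The yolk syncytial markers (16 genes, led by apoa1a) were 13530 to 15130, 11480 to 11530 and 18260 to 18510 CPM in P1, P2 and P3, against 15890 CPM in the control, with 8, 11 and 4 of 14 tested falling and 2, 0 and 4 rising. Lens (11 genes, led by crybb1) summed to 148.5 to 170.1, 76.3 to 77.1 and 76.6 to 113.9 CPM in P1, P2 and P3, against 542.8 CPM in the control, and all 11 fell in each. Epidermis (11 genes, led by krt4) was at 17060 to 18070, 16620 to 16990 and 17600 to 18130 CPM in P1, P2 and P3, against 24460 CPM in the control, with 9, 8 and 8 of the 11 falling. Their part in the changes of the 8 genes was not tested.

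The members slc2a1a, eno1a and pfkma lie on chromosome 23. The gap between slc2a1a and eno1a is 443841 bases on Zv9 and holds 8 gene models, of which 5 were tested. Of these 5, ca6, a carbonic anhydrase gene, fell in P1, P2 and P3 by 0.82 ± 0.08, 0.94 ± 0.09 and 0.53 ± 0.08, and the other 4 did not pass against the control. The neighbours slc2a1a and eno1a themselves went in opposite directions in every phenotype.

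The authors' deposited tables gave 1 of the 8 genes higher and 6 lower at an adjusted p below 0.05 in each of P1, P2 and P3 against the control. Over all 32312 rows of the authors' deposited tables, genes with few reads included, 7.00% passed in P1 (2.79% higher, 4.21% lower), 13.9% in P2 (6.33% higher, 7.53% lower) and 7.41% in P3 (2.79% higher, 4.62% lower). The difference from the edgeR counts was pgk1 in P2.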

How the data were processed

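Poly(A) RNA of whole zebrafish embryos was sequenced in 9 libraries, from RNA made with the RNeasy Mini kit and libraries made with the TruSeq v2 kit, per the labels' protocols. The submitters' processing notes name Novoalign, without a version, and the Zv9 genome. No source used here names the counting tool, its strand setting or the annotation release. Raw gene counts of each library come from 3 deposited tables, per the file headers, with identical control counts in all 3. The authors' FPKM columns equal counts divided by exon length and library total, to within 5.0e-07. P-values of the authors' own unnamed test are deposited as a score, a scaled negative log10, beside a variance-corrected log2 ratio. Left out were 11 columns of variance-corrected counts and 9 of splicing.

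Genes were filtered with filterByExpr (minimum count 10, minimum total 15), which left 19835 of 32312. All 9 libraries were fitted together by edgeR's quasi-likelihood method, with TMM normalisation and a term for group (edgeR 4.0.16, limma 3.58.1, R 4.3.3), with 5 residual and 12.4 median prior degrees of freedom and a common biological coefficient of variation of 0.0565. Tests were two-sided F tests, adjusted by Benjamini-Hochberg over all tested genes at 0.05, and the standard error is the log2 fold change divided by the square root of F. Log CPM used a prior count of 2. A floor of 3 counts is 0.144 to 0.25 CPM and covers counting error only, as reads carried no molecular identifiers. The fitting script was tested on simulated counts with known changes before use. It recovered 41.8%, 38.8% and 46.3% of 1.5-fold changes in P1, P2 and P3 against the control. A gene that did not pass may therefore still have changed by such a fold. The simulated counts had 1 spread for all genes and 200 changed genes, unlike the data.

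The 8 genes, the lists of pathway genes and markers, and the tests were chosen with earlier results of these data known. The lists hold 269 entries, of which 214 matched a symbol of the tables, 17 a reference gene name, 10 a RefSeq synonym (GRCz12tu names, used for names alone) and 14 a numbered copy, and 14 were unmatched. Named beyond the 8 genes were same-step relatives that passed anywhere, up to 3 genes with the smallest p per other list and comparison, and the 3 genes nearest each member by Pearson correlation among those of at least 5 mean CPM. The genes slc2a1b, gapdhs and eno1b, which passed in no comparison with the control, and taldo1, ca6 and egln1 were named after their values were seen. The alternatives used DESeq2 1.42.0, other scalings (RLE, or none beyond library totals), other filters (none, or 1 CPM in 2 libraries), a fit to the compared groups, the replicate number as a block, or 1 of the 8 phenotype libraries fewer. Some genes that the naming rule covers are not reported here.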

Additional observations from a re-analysis of the deposited data

Results flagged for a closer look

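The effect of exposure with malformation differed among P1, P2 and P3 for 7 of the 8 genes, by the joint edgeR test of any difference among the phenotypes adjusted over all tested genes, and this is what singled them out. The adjusted p was 4.28e-05 for slc2a1a, whose level was highest in the 3 P3 libraries. It was 0.00435 for pgk1, which was lowest in P3 and highest in P2 among the phenotypes. For pfkma it was 0.00565, with P1 the highest of the phenotypes on average, and for eno1a 0.00657, with P1 above both others. For gapdh it was 0.0157 and for hk1 0.0273, both with P2 lowest. For ldha it was 0.0412, with P3 lowest. The same test passed for 28.8% of all tested genes. That share is of the fit to all 9 libraries. Without P3 replicate 0, the library that stood apart from its group, the joint test passed for 6 of the 8. Fewer of the 8 passed without either P2 replicate, which leaves P2 with 1 library. The number of all tested genes that passed also moved with the library left out, as given below.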

How the results depend on the processing

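Over 15 alternatives, 662 of 720 fold changes of the 8 genes (6 comparisons each) kept their direction and their side of the threshold, 44 lost the call, 9 gained one and 5 changed sign. The sign changes were of values that had not passed: hk2 in P1 against the control was -0.0117 without P1 replicate 2 (-0.0117 to 0.0699 over the libraries left out). For gapdh, P3 against P1 was 0.00808 without P1 replicate 2 and 0.0627 without P3 replicate 0 (-0.118 to 0.0627). For pfkma, P3 against P2 was -0.00324 without P3 replicate 2 (-0.00324 to 0.554), and for eno1a it was 0.0134 without P3 replicate 0 (-0.144 to 0.0134). With single libraries left out, the number of the 8 genes that passed was 4 to 7 in P1, 6 to 7 in P2 and 7 to 7 in P3 against the control. It was 0 to 4 in P1 against P2 (0 without either P2 replicate), 2 to 4 in P3 against P1, 2 to 4 in P3 against P2 and 4 to 7 in the joint test. With the compared groups alone, 2 of the 8 passed in P3 against P1, against 4. The share of all tested genes that passed in that fit is not given here, so the drop cannot be read as particular to the 8. The causes of these changes were not tested.

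Replicate numbers did not pair the libraries: deviations of same-numbered libraries correlated at -0.266 to 0.062. Those of differently numbered libraries ranged from -0.102 (P1 replicate 2 with P3 replicate 1) to 0.3 (P1 replicate 0 with P3 replicate 1). P1 replicate 1 with P3 replicate 0 was at 0.232, and the remaining differently numbered pairs of P1 and P3 lay between -0.102 and 0.041. No pairing of differently numbered libraries was modelled, so the block on replicate number does not account for such pairs. With the replicate number as a block, 2 of the 8 passed in P1 against P2, against 4 without it, and 15.6% of all tested genes passed. In P1, P2 and P3 against the control 6, 6 and 7 passed (13.6%, 26.4% and 19.8% of all genes), in P3 against P1 3 (8.39%), in P3 against P2 3 (16.3%) and in the joint test 5 (22.2%). The calls lost with the block were eno1a in P1 against the control (adjusted p = 0.0559), eno1a and hk1 in P1 against P2 (0.105 and 0.0543), pfkma in P3 against P1 (0.0574), and ldha and gapdh in P3 against P2 (0.0521 and 0.0587), all by edgeR, and hk2 in P3 against P2 passed (0.0252). DESeq2 called 7, 6 and 7 of the 8 in P1, P2 and P3 against the control, 4 in each pair of phenotypes and 5 in the joint test, and fewer of all genes. It called 1915, 3756 and 2691 genes in P1, P2 and P3 against the control, against edgeR's 3227, 5916 and 4482. For P1 against P2, P3 against P1, P3 against P2 and the joint test it called 2423, 1241, 2612 and 3512, against 4072, 2069, 4270 and 5708. DESeq2 started from every gene with a read and applied its own filter, so these numbers and edgeR's are not of the same set of genes. The share of all genes that passed with DESeq2 is not given here. Leaving out 1 library gave 1725 to 5206 for P1 against P2, 1301 to 2156 for P3 against P1, 1885 to 4654 for P3 against P2 and 3083 to 6536 for the joint test, and 2369 to 4208, 3981 to 6815 and 3963 to 4673 for P1, P2 and P3 against the control.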
